A study of Rattus norvegicus with 12 samples.

Results

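The thoracic spinal cord was compared 7 d after a mild compression injury with the cord of sham-operated rats, which had a laminectomy alone. The contrast used 6 of the 12 RNA pools of the study: 2 pools taken 7 d after injury and all 4 sham pools. The 7 d pools were 1 pool of G93A SOD1 mutant rats and 1 pool of wild type (WT) rats. The shams were 1 pool of each genotype taken 30 min after the operation and 1 pool of each genotype taken 4 h after it. All rats were female Sprague-Dawley rats, given as 10 weeks old, and each pool joined RNA of rats of 1 genotype, operation and time. The sources used here do not give the number of rats in a pool, the promoter of the mutant gene or its copy number. The other 6 pools, of injured cord at 30 min, 4 h and 24 h, entered the statistical fit but not the contrast. Each pool was hybridised to 1 Illumina rat array, so n = 1 pool for each genotype and condition, and a pool hides the spread between its rats. No 7 d sham is among the pools analysed here, so that injury and time since surgery cannot be told apart.

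Compression crushes axons and cell bodies and opens vessels. In the days that follow, resident microglia and blood-borne monocytes become phagocytes that clear dead cells and myelin, fibroblasts and pericytes lay down collagen, and astrocytes around the lesion change shape and gene expression. SOD1 encodes copper-zinc superoxide dismutase, which removes superoxide, and its G93A form causes an inherited motor neuron disease, amyotrophic lateral sclerosis. Bulk RNA cannot tell fewer cells of a type from less RNA per cell, and this holds for every gene group below.

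Levels and changes are log2 values after background correction and normalization, on which a step of 1 is a 2-fold change. Of 22226 probes, 13793 were above background on at least 2 arrays and were tested, and 9336 named genes had a tested probe, with 1 probe used for each gene. The lowest level detected on an array was between 6.47 and 6.51, so levels near 6.5 are at the edge of detection. A gene is said to have risen or fallen where its adjusted p in limma was under 0.05 for 7 d injury minus the mean of the shams. The p-values measure the spread among the 12 pools around the fit, not that between rats. A change is 7 d injury minus shams on the log2 scale, and levels of the shams are given in the order 30 min and 4 h for each genotype. Sod1 itself was measured first: it was at 12.64 in G93A and 12.29 in WT at 7 d, against 12.80 and 12.77 in the G93A shams and 12.82 and 12.95 in the WT shams. The 7 d levels were the lowest of the 6, but the log2 fold change of -0.37 (SE 0.14, adjusted p = 0.0956) did not pass the test. Sod1 did pass, as lower, under 5 of 24 other settings, over which its change ranged from -0.61 to -0.13. The change in G93A minus that in WT was 0.45 with an adjusted p of 1.0. The sources used here do not say whether this rat probe reads the mutant transcript.

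The probe identifiers of the deposited table did not match its values, judged by which probes were above background, and all results rest on sorting the identifiers as text before genes were named. As deposited, 48.1% of 184 probes for smell receptors, which the cord should lack, and 52.8% of 111 probes for ribosome and proteasome genes, which all cells use, were above background; after sorting these shares were 8.24% and 90.5%. On 11 of the 12 arrays from 49.6% to 53.8% of probes were above background, and on the WT 30 min injury array, which is not in the contrast, 41.3% were. Without that pool, 2316 probes were called higher and 2594 lower at 7 d, against 1571 and 1328 with it. Without the G93A 30 min injury pool the counts were 2302 and 2595. With either of these pools left out, the model fits the other exactly. Both fits thus take both 30 min injury pools out of the spread, and their counts cannot tell the arrays apart.

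The markers of cell types were measured in all 6 pools to check the labelled tissue. The mean level of 6 neuronal markers was 10.44 in G93A and 9.58 in WT at 7 d, against 11.22 and 11.14 in the G93A shams and 11.24 and 11.27 in the WT shams. That of 5 oligodendrocyte markers was 10.73 in G93A and 10.96 in WT at 7 d, against 11.84 and 11.71 in the G93A shams and 11.67 and 11.80 in the WT shams. Both were lower in both 7 d pools than in any sham, and the neuronal markers were lowest in the WT 7 d pool. 6 microglial markers averaged 9.43 in G93A and 9.53 in WT at 7 d, against 7.95 and 7.82 in the G93A shams and 8.08 and 7.79 in the WT shams. 5 markers of pericytes and fibroblasts averaged 10.73 in G93A and 11.78 in WT at 7 d, against 8.87 and 9.22 in the G93A shams and 9.27 and 9.14 in the WT shams, the widest gap between the 7 d pools and the shams among the 16 marker lists. Markers of skeletal muscle, a tissue beside the cord, averaged 6.60 in G93A and 6.54 in WT at 7 d, against 6.73 and 6.62 in the G93A shams and 6.67 and 7.83 in the WT shams. The WT 4 h sham pool stood apart in these muscle markers, and the part of this in the results was not tested. In the plot of markers by pool the 7 d pools lie apart from the shams for microglia, macrophages, neurons and fibroblasts, and among the shams for neutrophils and Schwann cells.

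**Figure D1:**
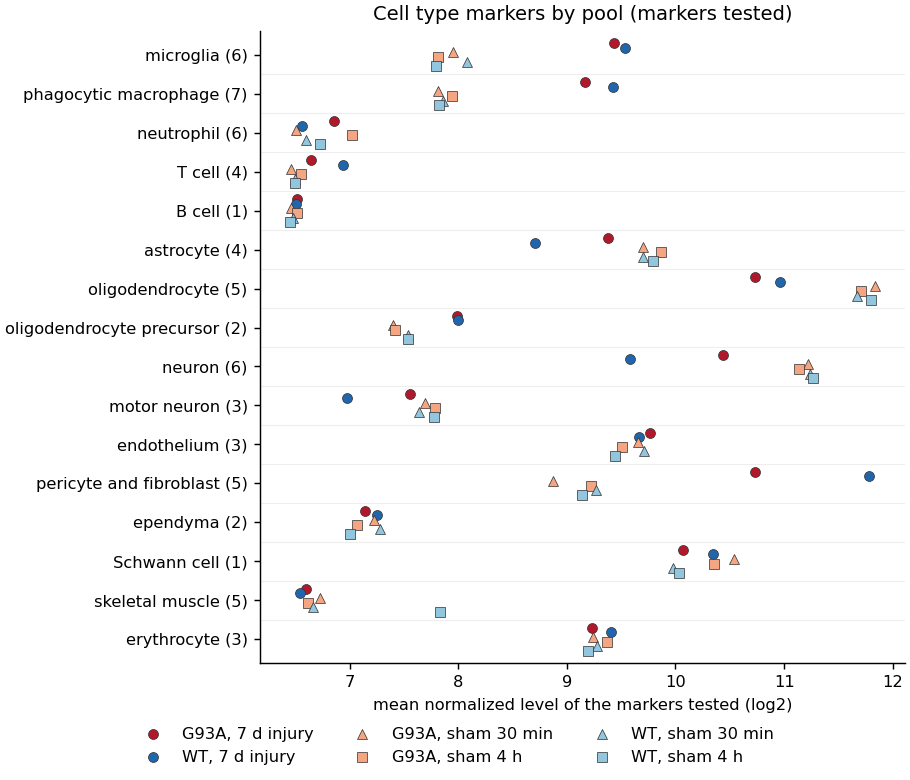
Mean normalized level (log2, horizontal axis) of the tested markers of each cell type in the 6 pools, with the number of markers tested in brackets. Each symbol is 1 pool, so there are no error bars; the pericyte and fibroblast markers lie at 10.73 in G93A and 11.78 in WT at 7 d, and between 8.87 and 9.27 in the shams.

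At 7 d, 1571 probes were higher (11.4% of those tested) and 1328 were lower (9.63%) than in shams, and at least 2-fold so for 502 (3.64%) and 407 (2.95%). Among named genes, 1132 rose (12.1%) and 942 fell (10.1%), and 392 (4.2%) and 294 (3.15%) of these did so by at least 2-fold. Both 7 d pools lay above all 4 shams for 24.9% of named genes and below all 4 for 30.4%, and the median log2 fold change over all of them was -0.01. The genes with the largest increases include phagocyte, complement, interferon and collagen genes, and those with the largest decreases are mostly neuronal. Counts are 533 higher and 107 lower probes without the WT 7 d pool, and 1155 and 614 without the G93A 7 d pool.

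Cd68, a lysosomal glycoprotein of phagocytes, had the largest increase of all named genes. It was at 11.85 in G93A and 12.52 in WT at 7 d, against 6.87 and 7.07 in the G93A shams and 6.92 and 6.89 in the WT shams. Its log2 fold change was 5.25 (SE 0.23, adjusted p = 6.01e-07), a 38.0-fold rise. Fcrl2, of the Fc receptor-like family, was at 10.80 in G93A and 11.52 in WT at 7 d, against 6.64 and 6.64 in the G93A shams and 6.56 and 6.56 in the WT shams. Fcrl2 rose by 4.56 (SE 0.20, adjusted p = 6.01e-07). Its shams were at the edge of detection, and its level at 24 h after injury was 6.95 in G93A and 7.24 in WT. Ncf1, a subunit of the phagocyte NADPH oxidase, was at 11.15 in G93A and 11.25 in WT at 7 d, against 7.76 and 7.50 in the G93A shams and 7.75 and 7.29 in the WT shams. Ncf1 rose by 3.62 (SE 0.18, adjusted p = 1.37e-06). These phagocyte genes did not overlap between the 7 d pools and the shams, and the same was true of every other gene in the plot of the largest changes, against the shares of all genes given above. The plotted genes were picked by their change in these same pools, so the lack of overlap is no separate evidence. Ms4a6bl1, of the membrane-spanning 4A family, rose by 3.18 (SE 0.18, adjusted p = 3.44e-06). Ceacam4, an adhesion molecule of the carcinoembryonic antigen family, was at 9.76 in G93A and 11.74 in WT at 7 d, against 6.91 and 7.66 in the G93A shams and 7.21 and 7.29 in the WT shams. Ceacam4 rose by 3.48 (SE 0.39, adjusted p = 0.000169). Its WT 7 d pool was well above its G93A 7 d pool, and the change in G93A minus that in WT was not called.

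**Figure D2:**
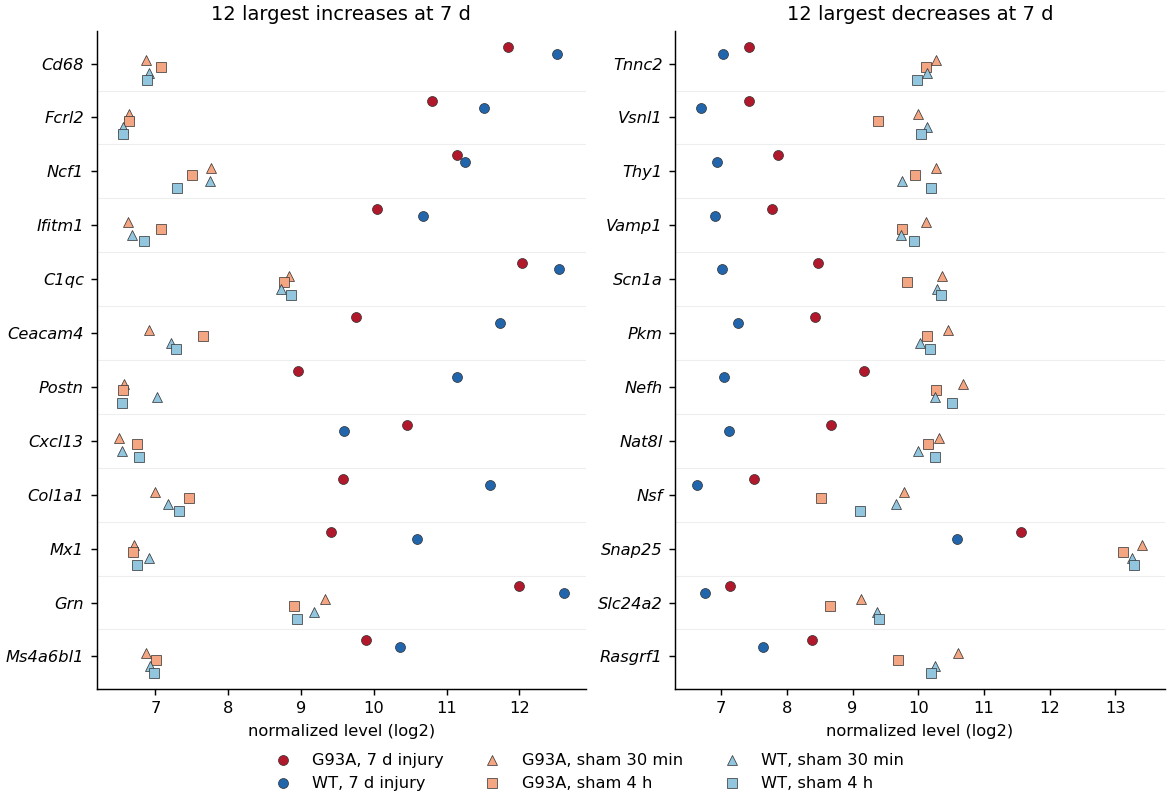
Normalized level (log2, horizontal axis) of the 12 named genes with the largest increases and the 12 with the largest decreases at 7 d in the 6 pools. Each symbol is 1 pool, with no error bars; Cd68 lies at 11.85 in G93A and 12.52 in WT at 7 d and no higher than 7.07 in shams, and Tnnc2 at 7.43 and 7.03 at 7 d and no lower than 9.98 in shams.

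Genes that mark microglia rose together, and those of the Trem2 receptor complex were among the largest. Of 18 genes listed, 12 were on the array and 12 were tested, of which 10 rose and 0 fell, against 12.1% and 10.1% of all named genes. The median log2 fold change was 1.44, and the median difference from the own shams was 1.47 in G93A and 1.41 in WT. Trem2, a lipid-sensing receptor of microglia, was at 12.21 in G93A and 12.42 in WT at 7 d, against 9.24 and 8.95 in the G93A shams and 9.67 and 8.97 in the WT shams. Trem2 rose by 3.11 (SE 0.19, adjusted p = 5.63e-06). Tyrobp, the adaptor through which Trem2 signals, rose by 2.86 (SE 0.26, adjusted p = 4.4e-05). Slc2a5, a fructose transporter, rose by 2.57 (SE 0.24, adjusted p = 4.69e-05), Aif1, a cytoskeletal protein known as Iba1, by 1.94 (SE 0.15, adjusted p = 1.42e-05), and Itgam, the integrin chain CD11b, by 1.73 (SE 0.18, adjusted p = 8.3e-05). The 2 members that did not pass were Tmem119 (-0.04), which lay at the edge of detection, and Adgrg1 (-0.12), an adhesion receptor that was at 11.31 in G93A and 11.29 in WT at 7 d, against 11.30 and 11.58 in the G93A shams and 11.37 and 11.44 in the WT shams. Microglia genes called higher numbered 9 without the WT 7 d pool and 10 without the WT 30 min injury pool, the extremes with 1 pool left out.

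Genes of phagocytosis, lipid uptake and the lysosome also rose. Of 28 tested phagocyte and lipid genes (of 36 listed), 20 rose and 0 fell, with a median of 0.93, and of 0.80 in G93A and 1.15 in WT against own shams. Fcgr3a, a receptor for antibody-coated particles, was at 10.56 in G93A and 10.91 in WT at 7 d, against 7.67 and 7.95 in the G93A shams and 7.70 and 7.82 in the WT shams. Fcgr3a rose by 2.95 (SE 0.21, adjusted p = 1.23e-05). Lgals3, galectin 3, rose by 2.33 (SE 0.26, adjusted p = 0.000171), and Plin2, the coat of lipid droplets, by 2.21 (SE 0.19, adjusted p = 2.45e-05). Apoc1, a lipoprotein component, rose by 2.07 (SE 0.21, adjusted p = 9.07e-05), and Hmox1, the enzyme that breaks down haem, by 2.18 (SE 0.21, adjusted p = 5.6e-05). Ch25h, which makes 25-hydroxycholesterol, had -0.07 and did not pass: it was at 7.36 in G93A and 7.33 in WT at 7 d, against 6.73 and 8.14 in the G93A shams and 6.78 and 7.99 in the WT shams, so that the 4 h shams were the highest. Phagocyte and lipid genes called higher numbered 13 without the WT 7 d pool and 21 without the G93A 30 min injury pool, the extremes with 1 pool left out. Of 27 tested lysosome genes (of 40 listed), 19 rose, 15 of them by at least 2-fold, and 1 fell; the median was 1.11, and 1.02 in G93A and 1.25 in WT against own shams. Grn, progranulin, was at 11.99 in G93A and 12.61 in WT at 7 d, against 9.32 and 8.91 in the G93A shams and 9.18 and 8.94 in the WT shams. Grn rose by 3.21 (SE 0.20, adjusted p = 5.72e-06). The proteases Ctsk, Ctsc and Ctsh rose by 2.74 (SE 0.28, adjusted p = 8.77e-05), 2.17 (SE 0.17, adjusted p = 2e-05) and 2.13 (SE 0.23, adjusted p = 0.000112), and Gusb, which cleaves glucuronides from matrix sugars, by 2.53 (SE 0.20, adjusted p = 2.02e-05). Laptm5, a lysosomal membrane protein of blood cells, rose by 2.37 (SE 0.32, adjusted p = 0.000611). The one gene of the list that fell was Atp6v1b2, a subunit of the proton pump, at 12.42 in G93A and 11.88 in WT at 7 d, against 12.87 and 12.81 in the G93A shams and 12.95 and 12.68 in the WT shams, with -0.68 (SE 0.17, adjusted p = 0.0142). The enzymes named and the pump subunit moved in opposite directions within this list. The call of Atp6v1b2 ended without the WT 7 d pool and without the WT 30 min sham pool, while from 16 to 19 genes rose with 1 pool left out.

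Complement was the list with the highest median, 1.83, with 1.77 in G93A and 2.05 in WT. Of 25 genes listed, 18 were on the array and 17 were tested, and 16 rose, 13 of them by at least 2-fold (4.2% of all named genes), while 0 fell. The 3 chains of C1q, which starts the classical pathway, all rose. C1qc was at 12.04 in G93A and 12.54 in WT at 7 d, against 8.83 and 8.77 in the G93A shams and 8.72 and 8.86 in the WT shams. C1qc rose by 3.50 (SE 0.18, adjusted p = 1.4e-06). C1qa rose by 2.70 (SE 0.20, adjusted p = 1.36e-05) and C1qb by 2.70 (SE 0.19, adjusted p = 9.48e-06). C1qb was at 13.35 in G93A and 13.26 in WT at 7 d, against 10.80 and 10.66 in the G93A shams and 10.50 and 10.47 in the WT shams. Cfd, the protease that starts the alternative pathway, was at 9.98 in G93A and 10.51 in WT at 7 d, against 7.04 and 7.24 in the G93A shams and 7.25 and 7.06 in the WT shams. Cfd rose by 3.10 (SE 0.21, adjusted p = 9.11e-06). C2 and C4b, which form the classical convertase, rose by 2.97 (SE 0.22, adjusted p = 1.42e-05) and 2.71 (SE 0.24, adjusted p = 3.5e-05). C1q, Cfd, C2 and C4b were all higher in both 7 d pools than in all 4 shams, as were 24.9% of all named genes. These members were picked by the size of their change in these same pools, so the lack of overlap is no separate evidence. Complement genes called higher numbered 14 without the WT 7 d pool and 16 without the WT 30 min injury pool, the extremes with 1 pool left out.

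Genes of antigen presentation rose, and the interferon-induced genes split into members that rose strongly and members that stayed near the edge of detection. Of 16 tested presentation genes (of 24 listed), 14 rose and 0 fell, with a median of 1.04. Ifi30, a lysosomal thiol reductase that prepares antigens, was at 10.26 in G93A and 10.58 in WT at 7 d, against 7.28 and 7.77 in the G93A shams and 7.28 and 7.52 in the WT shams. Ifi30 rose by 2.96 (SE 0.27, adjusted p = 3.98e-05). Psmb8, a catalytic subunit of the immunoproteasome, rose by 2.49 (SE 0.27, adjusted p = 0.00012), and Psme1, its activator, by 1.38 (SE 0.14, adjusted p = 9.19e-05). RT1-DMa and RT1-DMb, which load class II molecules, rose by 2.13 (SE 0.19, adjusted p = 3.52e-05) and 1.91 (SE 0.19, adjusted p = 6.91e-05). RT1-A2, a class I gene with near-identical relatives whose signal this probe may share, was at 9.96 in G93A and 10.25 in WT at 7 d, against 8.28 and 8.45 in the G93A shams and 7.64 and 8.82 in the WT shams, with 1.81 (SE 0.34, adjusted p = 0.00404). Presentation genes called higher numbered 9 without the WT 7 d pool and 16 without the WT 30 min injury pool, the extremes with 1 pool left out. Of 17 tested interferon genes (of 29 listed), 9 rose and 0 fell. The median was 0.42, with 0.13 in G93A and 0.61 in WT. Mx1, an antiviral GTPase, was at 9.41 in G93A and 10.60 in WT at 7 d, against 6.70 and 6.69 in the G93A shams and 6.91 and 6.75 in the WT shams. Mx1 rose by 3.24 (SE 0.28, adjusted p = 3.33e-05). Mx2 rose by 3.05 (SE 0.23, adjusted p = 1.46e-05), Ifi47 by 2.38 (SE 0.22, adjusted p = 3.98e-05) and Ifitm1, an interferon-induced membrane protein, by 3.55 (SE 0.20, adjusted p = 3.44e-06). Irf7, a transcription factor of the interferon pathway, was at 8.07 in G93A and 9.44 in WT at 7 d, against 6.86 and 6.94 in the G93A shams and 6.97 and 7.02 in the WT shams. Irf7 rose by 1.81 (SE 0.28, adjusted p = 0.00124). Oas1a, which senses double-stranded RNA, was at 7.00 in G93A and 7.97 in WT at 7 d, against 6.60 and 6.69 in the G93A shams and 6.57 and 6.58 in the WT shams. Oas1a rose by 0.87 (SE 0.19, adjusted p = 0.00952), although not in the fit without the WT 7 d pool. Gbp2, a guanylate-binding GTPase, rose by 1.66 (SE 0.26, adjusted p = 0.00135). Ifit1 (-0.04) and Gbp5 (-0.02) did not pass the test, and Ifit1 was above background in 0 of the 4 shams. Interferon genes called higher numbered 4 without the WT 7 d pool and 11 without the WT 30 min injury pool, the extremes with 1 pool left out. Against the 4 h shams alone, 7 interferon genes were called higher, with a median of 0.20.

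The promoters of Irf7 (chr1:205800024-205800273, minus strand), Oas1a (chr12:41330216-41330465, plus strand) and Gbp2 (chr2:234005477-234005726, plus strand) are shown because these 3 members rose and carry the letters of the interferon-stimulated response element. Each is the 250 bases before the start that the RefSeq table gives on the GRCr8 build, 5′ to 3′ in the direction of the gene, and capitals mark GAAA, any 2 bases and GAAA again on either strand.
Irf7: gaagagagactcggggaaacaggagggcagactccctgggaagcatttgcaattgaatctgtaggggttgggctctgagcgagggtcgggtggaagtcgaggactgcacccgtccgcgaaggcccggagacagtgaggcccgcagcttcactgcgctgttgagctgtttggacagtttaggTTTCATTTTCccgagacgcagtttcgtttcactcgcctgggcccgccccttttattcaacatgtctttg
Oas1a: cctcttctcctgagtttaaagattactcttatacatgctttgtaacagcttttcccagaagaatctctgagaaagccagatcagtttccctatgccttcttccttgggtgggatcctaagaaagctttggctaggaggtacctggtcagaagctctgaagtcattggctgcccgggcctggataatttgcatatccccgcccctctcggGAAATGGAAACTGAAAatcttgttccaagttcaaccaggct
Gbp2: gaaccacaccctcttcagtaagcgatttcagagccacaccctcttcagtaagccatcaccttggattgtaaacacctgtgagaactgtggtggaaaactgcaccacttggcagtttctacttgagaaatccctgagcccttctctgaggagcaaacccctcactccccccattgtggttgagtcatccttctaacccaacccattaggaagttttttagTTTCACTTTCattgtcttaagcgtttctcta
The motif was held by 10 of the 14 tested interferon genes with a RefSeq promoter, by 4 of the 8 of these that rose, and by 3.61% of all 27457 genes with a promoter. In Oas1a the 2 matches overlap each other. Isg20, Ifit3, Gbp5, Ifi27, Cxcl10 and Bst2, which did not pass the test, hold it too. They are all of the tested interferon genes with a promoter that were not called. A match describes letters in this window and not a bound site.

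Genes of the leukocyte surface and signalling rose almost throughout. Of 36 genes listed, 31 were on the array and 30 were tested, and 27 rose, 18 by at least 2-fold, while 0 fell; the median was 1.29. Pld4, an endolysosomal nuclease, was at 9.96 in G93A and 10.14 in WT at 7 d, against 7.61 and 7.21 in the G93A shams and 7.38 and 7.13 in the WT shams. Pld4 rose by 2.72 (SE 0.20, adjusted p = 1.29e-05). Ptpn6, the phosphatase SHP-1 that restrains leukocyte receptors, rose by 2.62 (SE 0.32, adjusted p = 0.000258), Cyba, a membrane subunit of the NADPH oxidase, by 2.49 (SE 0.19, adjusted p = 1.46e-05), and Cd53, a tetraspanin, by 2.39 (SE 0.19, adjusted p = 2.09e-05). Leukocyte surface genes called higher numbered 21 without the WT 7 d pool and 28 without the WT 30 min injury pool, the extremes with 1 pool left out. Lymphocyte and neutrophil genes that passed the test rose by less than 1 log2 unit, apart from Lcn2, and of all named genes 12.1% rose. Of 11 tested T and B cell genes, 4 rose, 0 of them by 2-fold, and the median was 0.10; besides Cd8a and Cd8b these were Lck (0.10) and Prf1 (0.17), a kinase of T cell signalling and the pore protein perforin, whose calls ended under 9 and 17 of 24 other settings. Cd8a, a coreceptor of cytotoxic T cells, was at 6.91 in G93A and 7.89 in WT at 7 d, against 6.46 and 6.52 in the G93A shams and 6.51 and 6.44 in the WT shams. Cd8a rose by 0.92 (SE 0.17, adjusted p = 0.00396). Cd8b, its partner chain, was above background in 0 of the 4 shams and was at least 1.3-fold higher at 7 d, with mean levels of 6.85 at 7 d and 6.45 in shams and an adjusted p of 0.00163. Cd3g (0.21) and Cd3e (-0.02), chains of the T cell receptor complex, did not pass. Among Cd8a, Cd8b, Cd3g and Cd3e, all near the edge of detection in shams, the WT 7 d pool was the highest except for Cd3e. T and B cell genes called higher numbered 2 without the WT 7 d pool and 6 without the WT 30 min injury pool, the extremes with 1 pool left out, and 2 without the WT 30 min sham pool, 2 without the WT 4 h sham pool and 2 without the G93A 30 min sham pool. Of 14 tested neutrophil genes, 3 rose, namely Lcn2 (1.47), Mmp9 (0.14) and Csf3r (0.09), and the median was 0.03; the calls of Mmp9 and Csf3r ended under 10 and 13 of 24 other settings. S100a8, an abundant neutrophil protein, was at 8.45 in G93A and 6.67 in WT at 7 d, against 6.67 and 9.31 in the G93A shams and 7.11 and 7.80 in the WT shams, with -0.16 and no call. The neutrophil markers S100a9 and Elane counted as not detected at 7 d and in the shams alike, so they cannot tell 7 d from shams. Neutrophil genes called higher numbered 1 without the G93A 30 min sham pool and 3 without the WT 30 min injury pool, the extremes with 1 pool left out, and 1 without the G93A 4 h sham pool.

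Cytokines and chemokines moved in both directions. Of 27 tested (of 32 listed), 6 rose and 4 fell, against 12.1% and 10.1% of all named genes, and the median was 0.01. Against the 30 min shams alone, 8 of these genes were called higher and 0 lower. Against the 4 h shams alone, 5 were called higher and 5 lower. Cxcl13, which draws B cells, was at 10.45 in G93A and 9.59 in WT at 7 d, against 6.50 and 6.75 in the G93A shams and 6.54 and 6.78 in the WT shams. Cxcl13 rose by 3.38 (SE 0.27, adjusted p = 2e-05). It was the 1 gene of the 12 largest increases whose G93A 7 d pool was above its WT 7 d pool. Cxcl16, a membrane-bound chemokine of phagocytes, rose by 1.90 (SE 0.24, adjusted p = 0.000337), Il18, a cytokine matured by the inflammasome, by 1.52 (SE 0.27, adjusted p = 0.00268), and Tgfb1, which drives matrix production, by 1.48 (SE 0.16, adjusted p = 0.000131). Ccl2, which draws monocytes, was at 7.53 in G93A and 7.70 in WT at 7 d, against 7.02 and 9.99 in the G93A shams and 7.40 and 9.87 in the WT shams, and its -0.96 did not pass (adjusted p = 0.0508). Cxcl1, a neutrophil attractant, fell with a change of -1.56 (SE 0.30, adjusted p = 0.00457). The other members that fell were Il1b (-0.87), Cx3cl1 (-0.82) and Ccl7 (-0.80), a macrophage cytokine, a chemokine of neurons and a monocyte attractant. The calls of Il18 and Cxcl1 ended without the WT 7 d pool. Cytokine genes called lower numbered 0 without the WT 7 d pool and 5 without the WT 30 min injury pool, the extremes with 1 pool left out, and 1 without the G93A 7 d pool, 2 without the WT 30 min sham pool, 1 without the G93A 30 min sham pool and 2 without the G93A 4 h sham pool.

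Cell cycle genes rose, with the same median difference in both genotypes. Of 32 genes listed, 26 were on the array and 23 were tested, and 18 rose while 0 fell. The median was 0.49, with 0.41 in G93A and 0.41 in WT. Cdk1, the kinase of mitotic entry, was at 8.26 in G93A and 8.01 in WT at 7 d, against 6.49 and 6.53 in the G93A shams and 6.51 and 6.55 in the WT shams. Cdk1 rose by 1.62 (SE 0.22, adjusted p = 0.000665). Ccnb2, a mitotic cyclin, rose by 1.58 (SE 0.18, adjusted p = 0.00016), Prc1, of the central spindle, by 1.5 (SE 0.22, adjusted p = 0.000967), Mcm6, of the replication helicase, by 1.57 (SE 0.19, adjusted p = 0.000243), and Rrm2, which supplies deoxynucleotides, by 0.86 (SE 0.15, adjusted p = 0.00238). Ccnd1, the cyclin of early cycle entry, was at 10.84 in G93A and 10.87 in WT at 7 d, against 9.36 and 9.82 in the G93A shams and 9.61 and 9.96 in the WT shams. Ccnd1 rose by 1.17 (SE 0.21, adjusted p = 0.00305), a call that ended without the WT 7 d pool. Cdk1, Ccnb2 and Prc1 were near the edge of detection in all shams, whereas Ccnd1 was well above it. Cell cycle genes called higher numbered 7 without the WT 7 d pool and 19 without the WT 30 min injury pool, the extremes with 1 pool left out.

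Collagens, matrix proteins and their enzymes rose in both genotypes. Of 42 genes listed, 28 were on the array and 26 were tested; 23 rose, 17 by at least 2-fold, and 0 fell. The median was 1.58, with 1.18 in G93A and 1.98 in WT, and the change was larger in WT for 21 of 26 genes, against 82.2% of all named genes that rose and 64.5% of all named genes. Postn, periostin, was at 8.96 in G93A and 11.15 in WT at 7 d, against 6.57 and 6.55 in the G93A shams and 7.03 and 6.55 in the WT shams. Postn rose by 3.38 (SE 0.39, adjusted p = 0.000184). Col1a1, the main chain of type I collagen, was at 9.58 in G93A and 11.60 in WT at 7 d, against 7.00 and 7.46 in the G93A shams and 7.17 and 7.33 in the WT shams. Col1a1 rose by 3.35 (SE 0.41, adjusted p = 0.000266). Col3a1, of type III collagen, was at 9.25 in G93A and 10.53 in WT at 7 d, against 6.74 and 7.10 in the G93A shams and 7.05 and 6.85 in the WT shams. Col3a1 rose by 2.96 (SE 0.28, adjusted p = 5.38e-05). In all 3 genes the WT 7 d pool was more than 1 log2 unit above the G93A 7 d pool, but the genotype difference of -1.96 for Postn and -2.0 for Col1a1 did not pass, with adjusted p of 0.603 and 0.609. The pericyte and fibroblast markers given above, 10.73 in G93A and 11.78 in WT at 7 d, against 8.87 to 9.27 in shams, moved with these genes, and their part in the result was not tested. Fn1, fibronectin, rose by 2.25 (SE 0.22, adjusted p = 6.08e-05), and Mmp14, a membrane-bound matrix protease, by 2.33 (SE 0.28, adjusted p = 0.000242). Serpinh1, a collagen chaperone, had -0.04 and lay near the edge of detection in all 6 pools. Mmp12, an elastase of macrophages, was above background in 0 of the 4 shams and was at least 2.47-fold higher at 7 d (adjusted p = 0.00253), at 7.12 in G93A and 8.43 in WT at 7 d, against 6.44 and 6.46 in the G93A shams and 6.42 and 6.44 in the WT shams. Matrix genes called higher numbered 11 without the WT 7 d pool and 23 without the WT 30 min injury pool, the extremes with 1 pool left out.

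Part of the list of reactive astrocyte genes rose, and part of the list of resting transport and coupling genes of astrocytes fell. Which cells carried the genes that rose was not tested. Of 20 tested reactive genes (of 30 listed), 9 rose and 0 fell, with a median of 0.46. Vim, the intermediate filament vimentin, was at 13.23 in G93A and 13.72 in WT at 7 d, against 11.74 and 11.87 in the G93A shams and 11.91 and 12.02 in the WT shams. Vim rose by 1.59 (SE 0.21, adjusted p = 0.000483). Nes, the filament nestin, rose by 1.46 (SE 0.21, adjusted p = 0.00084), and Cp, the copper carrier ceruloplasmin, by 1.74 (SE 0.17, adjusted p = 6.85e-05). Cd14, a coreceptor for bacterial lipid that phagocytes also carry, rose by 1.17 (SE 0.22, adjusted p = 0.00416). Against the 4 h shams alone, 4 reactive genes were called higher and the median was 0.04. Reactive genes called higher numbered 4 without the WT 7 d pool and 11 without the WT 30 min injury pool, the extremes with 1 pool left out. Of 18 tested resting genes (of 23 listed), 0 rose and 9 fell, with a median of -0.37. Gjb6, the gap junction protein connexin 30, was at 10.68 in G93A and 9.23 in WT at 7 d, against 11.61 and 11.64 in the G93A shams and 11.80 and 11.71 in the WT shams. Gjb6 fell with a change of -1.73 (SE 0.29, adjusted p = 0.00214). Slc7a10, a transporter of small neutral amino acids, fell with a change of -1.37 (SE 0.31, adjusted p = 0.0113), Agt, angiotensinogen, with -0.97 (SE 0.18, adjusted p = 0.00337), and Aqp4, the water channel of astrocyte endfeet, with -0.90 (SE 0.24, adjusted p = 0.0213). Slc1a2, the glutamate transporter GLT-1, fell with a change of -0.71 (SE 0.19, adjusted p = 0.0228), whereas Slc1a3, the glutamate transporter GLAST, had 0.44 (adjusted p = 0.126) and Gja1, connexin 43, had 0.10 (adjusted p = 0.731). The members with the largest falls were lowest in the WT 7 d pool. Resting astrocyte genes called lower numbered 0 without the WT 7 d pool and 12 without the WT 30 min injury pool, the extremes with 1 pool left out, and 4 without the WT 30 min sham pool, 3 without the WT 4 h sham pool and 5 without the G93A 30 min sham pool.

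Few myelin genes passed the test, although most were lower at 7 d. Of 26 tested (of 36 listed), 0 rose and 6 fell; both 7 d pools were below all 4 shams for 17, against 30.4% of all named genes, and the median was -0.45. Mbp, myelin basic protein, was at 10.19 in G93A and 9.99 in WT at 7 d, against 12.45 and 11.80 in the G93A shams and 12.25 and 12.26 in the WT shams. Mbp fell with a change of -2.10 (SE 0.24, adjusted p = 0.000204). Mobp, another compact myelin protein, fell with a change of -0.94 (SE 0.16, adjusted p = 0.00272), and Ugt8, which makes the lipid galactocerebroside, with -0.72 (SE 0.23, adjusted p = 0.0463). Mag (-0.63, adjusted p = 0.065) and Cldn11 (-0.73, adjusted p = 0.37), both structural proteins of myelin, did not pass. Cspg4, the NG2 proteoglycan of oligodendrocyte precursors and pericytes, was at 8.92 in G93A and 9.21 in WT at 7 d, against 7.85 and 7.87 in the G93A shams and 8.01 and 7.87 in the WT shams. Cspg4 rose by 1.17 (SE 0.26, adjusted p = 0.00926), 1 of 2 precursor genes that rose among 10 tested, with Sox6 (0.24), while Olig1 (-0.45) and Bcan (-0.36) fell. The calls of Sox6, Olig1 and Bcan were lost with Cspg4's without the WT 7 d pool, that of Cspg4 also without the G93A 7 d pool, and that of Ugt8 under 16 of 24 other settings. Myelin genes called lower numbered 2 without the WT 7 d pool and 16 without the WT 30 min injury pool, the extremes with 1 pool left out, and 16 without the G93A 30 min injury pool, 3 without the G93A 7 d pool, 3 without the WT 30 min sham pool and 3 without the G93A 30 min sham pool.

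Genes of cholesterol synthesis fell together in both genotypes. Of 29 genes listed, 21 were on the array and 20 were tested, and 14 fell, 12 by at least 2-fold (3.15% of all named genes), while 1 rose. The median was -1.11, with -1.04 in G93A and -1.18 in WT. Idi1, which isomerises isopentenyl diphosphate, was at 8.38 in G93A and 8.38 in WT at 7 d, against 9.91 and 10.25 in the G93A shams and 10.00 and 10.34 in the WT shams. Idi1 fell with a change of -1.75 (SE 0.21, adjusted p = 0.000242). Fdft1, squalene synthase, was at 8.55 in G93A and 8.15 in WT at 7 d, against 9.98 and 10.19 in the G93A shams and 9.91 and 10.17 in the WT shams. Fdft1 fell with a change of -1.71 (SE 0.21, adjusted p = 0.000266). Msmo1 and Tm7sf2, of the later sterol steps, fell with changes of -1.61 (SE 0.21, adjusted p = 0.000472) and -1.57 (SE 0.18, adjusted p = 0.000204), and Mvd, of the mevalonate steps, with -1.54 (SE 0.23, adjusted p = 0.000967). Insig1, which holds the sterol sensor in the endoplasmic reticulum, was at 8.57 in G93A and 8.13 in WT at 7 d, against 10.09 and 10.28 in the G93A shams and 10.16 and 10.51 in the WT shams. Insig1 fell with a change of -1.91 (SE 0.40, adjusted p = 0.00678), a call that ended without either 7 d pool. For each of these genes, picked as the members with the largest changes, both 7 d pools lay more than 1 log2 unit below every sham. Srebf1, a transcription factor of lipid synthesis that is better known for fatty acids than for sterols, was at 9.87 in G93A and 9.96 in WT at 7 d, against 9.24 and 8.72 in the G93A shams and 9.05 and 8.72 in the WT shams, and was the 1 gene that rose, with 0.98 (SE 0.31, adjusted p = 0.0447); its call ended under 14 of 24 other settings. Sterol genes called lower numbered 7 without the WT 7 d pool and 18 without the WT 30 min injury pool, the extremes with 1 pool left out, and 8 without the G93A 7 d pool.

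The promoters of Insig1 (chr4:8057770-8058019, minus strand), Idi1 (chr17:66547525-66547774, minus strand) and Msmo1 (chr16:29746863-29747112, plus strand) are shown because these sterol genes fell and hold CCAAT. They are again the 250 bases before the RefSeq start on GRCr8, 5′ to 3′ in the direction of the gene, and capitals mark CCAAT on either strand.
Insig1: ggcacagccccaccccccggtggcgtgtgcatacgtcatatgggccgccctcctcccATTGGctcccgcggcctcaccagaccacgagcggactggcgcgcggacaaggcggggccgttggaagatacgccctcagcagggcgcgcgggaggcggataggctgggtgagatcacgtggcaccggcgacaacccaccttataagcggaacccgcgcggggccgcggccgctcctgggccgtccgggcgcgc
Idi1: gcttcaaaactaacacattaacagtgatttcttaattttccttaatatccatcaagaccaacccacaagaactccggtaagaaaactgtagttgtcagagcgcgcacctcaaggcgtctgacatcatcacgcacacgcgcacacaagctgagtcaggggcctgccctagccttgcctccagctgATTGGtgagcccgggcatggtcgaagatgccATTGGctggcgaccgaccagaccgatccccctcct
Msmo1: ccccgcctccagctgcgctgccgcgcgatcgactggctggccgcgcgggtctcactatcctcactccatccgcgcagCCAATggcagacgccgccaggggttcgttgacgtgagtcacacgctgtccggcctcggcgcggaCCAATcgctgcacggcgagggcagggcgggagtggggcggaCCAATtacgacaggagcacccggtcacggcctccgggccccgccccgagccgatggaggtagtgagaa
CCAAT was held by 13 of the 16 tested sterol genes with a RefSeq promoter, by 10 of the 13 of these that were called, and by 36.1% of all genes with a promoter. The called holders include Srebf1, which rose, and Ebp, Srebf2 and Scd2, which were not called, hold it too. In all, 8 motifs were searched on both strands. The others were TCACCCCAC, CACCCCAC and TTCAGCACC, held by 0, 1 and 1 of these 16 genes, TCACGTGA and CACGTGAC, held by 2 and 4 of 23 lysosome genes, and GAGGAAGT, held by 1 of 14 interferon genes. CACCCCAC lies within TCACCCCAC, and TCACGTGA and CACGTGAC overlap. No match says only that the letters are not in this window. Their shares of all promoters were 0.448%, 2.51%, 0.346%, 0.776%, 1.85% and 2.2%, in the order named.

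Neuronal genes fell, and the WT 7 d pool was the lowest pool for the genes with the largest falls. Of 20 tested pan-neuronal genes (of 25 listed), 15 fell, 9 by at least 2-fold, and 0 rose. The median was -0.97, with -0.65 in G93A and -1.22 in WT. Vsnl1, a neuronal calcium sensor, was at 7.42 in G93A and 6.69 in WT at 7 d, against 9.99 and 9.39 in the G93A shams and 10.14 and 10.04 in the WT shams. Vsnl1 fell with a change of -2.83 (SE 0.55, adjusted p = 0.0047). Thy1, a glycoprotein of the neuronal surface, was at 7.86 in G93A and 6.95 in WT at 7 d, against 10.27 and 9.96 in the G93A shams and 9.75 and 10.20 in the WT shams. Thy1 fell with a change of -2.65 (SE 0.35, adjusted p = 0.000532). Map1b and Map2, which bind microtubules, fell with changes of -2.04 (SE 0.47, adjusted p = 0.0111) and -1.88 (SE 0.34, adjusted p = 0.00337). Gap43, a growth cone protein, was not called: it was at 12.47 in G93A and 12.22 in WT at 7 d, against 12.04 and 11.94 in the G93A shams and 12.14 and 12.10 in the WT shams, with 0.29. Vsnl1, Map1b and Map2 lost their calls without the WT 7 d pool, when G93A alone stands for 7 d. Pan-neuronal genes called lower numbered 3 without the WT 7 d pool and 18 without the WT 30 min injury pool, the extremes with 1 pool left out. The neuronal markers given above, 10.44 in G93A and 9.58 in WT at 7 d, against 11.14 to 11.27 in shams, moved with these genes, and their part in the result was not tested. All 5 neurofilament genes were tested and 4 fell; their median difference was -0.82 in G93A and -2.24 in WT, the widest gap between genotypes among the 34 lists. Nefh, the heavy chain of the axonal neurofilament, was at 9.17 in G93A and 7.05 in WT at 7 d, against 10.68 and 10.27 in the G93A shams and 10.26 and 10.51 in the WT shams. Nefh fell with a change of -2.32 (SE 0.52, adjusted p = 0.00991). Nefm and Nefl, the medium and light chains, fell with changes of -1.48 (SE 0.29, adjusted p = 0.00538) and -1.34 (SE 0.21, adjusted p = 0.00152), and Ina, alpha-internexin, with -1.86 (SE 0.34, adjusted p = 0.00337). Nefl was at 13.10 in G93A and 12.11 in WT at 7 d, against 13.89 and 13.96 in the G93A shams and 13.99 and 13.95 in the WT shams. Prph, peripherin of motor and sensory neurons, had -0.47 (adjusted p = 0.144): it was at 11.62 in G93A and 10.69 in WT at 7 d, against 11.58 and 11.78 in the G93A shams and 11.46 and 11.70 in the WT shams, within the range of the shams in G93A and below them in WT. For Nefh the change in G93A minus that in WT was 2.03, a smaller fall in G93A, and it was not called, with an adjusted p of 1.0. Neurofilament genes called lower numbered 1 without the WT 7 d pool and 5 without the G93A 7 d pool, the extremes with 1 pool left out.

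Genes of transmitter release, inhibitory neurons and ion channels fell as well. Of 24 tested presynaptic genes, 15 fell, 10 by at least 2-fold, and 0 rose; the median was -0.38. Snap25, a SNARE protein of vesicle fusion, was at 11.56 in G93A and 10.59 in WT at 7 d, against 13.41 and 13.12 in the G93A shams and 13.26 and 13.28 in the WT shams. Snap25 fell with a change of -2.19 (SE 0.23, adjusted p = 0.000102). Vamp1, its vesicle partner, was at 7.78 in G93A and 6.91 in WT at 7 d, against 10.12 and 9.75 in the G93A shams and 9.74 and 9.94 in the WT shams. Vamp1 fell with a change of -2.54 (SE 0.35, adjusted p = 0.000665). Nsf, which takes spent SNARE complexes apart, fell with a change of -2.20 (SE 0.59, adjusted p = 0.0229), Rab3a, a vesicle GTPase, with -1.67 (SE 0.28, adjusted p = 0.00197), and Dnm1, the dynamin of vesicle recycling, with -1.60 (SE 0.25, adjusted p = 0.00153). Presynaptic genes called lower numbered 4 without the WT 7 d pool and 18 without the WT 30 min injury pool, the extremes with 1 pool left out. Of 16 tested genes of inhibitory neurons, 8 fell and 0 rose, with a median of -0.50. Slc6a5, the transporter of glycinergic neurons, was at 9.61 in G93A and 8.11 in WT at 7 d, against 10.88 and 10.40 in the G93A shams and 10.75 and 10.86 in the WT shams. Slc6a5 fell with a change of -1.86 (SE 0.35, adjusted p = 0.00397). Slc32a1, which loads glycine and GABA into vesicles, fell with a change of -1.82 (SE 0.39, adjusted p = 0.00741), Gad1, which makes GABA, with -1.11 (SE 0.27, adjusted p = 0.0135), and the calcium-binding proteins Pvalb and Calb2 with -1.92 (SE 0.25, adjusted p = 0.000406) and -2.01 (SE 0.33, adjusted p = 0.00182). Npy, a peptide of dorsal horn neurons, had 0.12 and no call. Genes of inhibitory neurons called lower numbered 1 without the WT 7 d pool and 10 without the WT 30 min injury pool, the extremes with 1 pool left out, and 5 without the WT 30 min sham pool and 5 without the WT 4 h sham pool. Of 23 tested channel genes, 14 fell, 5 by at least 2-fold, and 0 rose. Scn1a, a voltage-gated sodium channel, was at 8.48 in G93A and 7.02 in WT at 7 d, against 10.36 and 9.83 in the G93A shams and 10.28 and 10.35 in the WT shams. Scn1a fell with a change of -2.46 (SE 0.42, adjusted p = 0.00231). Cacng2, stargazin, fell with a change of -2.11 (SE 0.43, adjusted p = 0.00626), and the potassium channels Kcnc1 and Kcnc2 with -1.69 (SE 0.32, adjusted p = 0.00398) and -1.20 (SE 0.23, adjusted p = 0.00503). In these lists the WT 7 d pool was again the lowest for each gene given. Channel genes called lower numbered 0 without the WT 7 d pool and 18 without the WT 30 min injury pool, the extremes with 1 pool left out, and 6 without the G93A 7 d pool, 6 without the WT 30 min sham pool, 5 without the WT 4 h sham pool and 9 without the G93A 30 min sham pool.

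Motor neuron genes moved in both directions, in shares not far above those of all named genes (12.1% higher and 10.1% lower): of 17 tested, 3 rose and 3 fell. Slc18a3, the vesicular acetylcholine transporter, was at 9.30 in G93A and 7.90 in WT at 7 d, against 9.64 and 9.88 in the G93A shams and 9.31 and 9.57 in the WT shams. Slc18a3 fell with a change of -1.0 (SE 0.28, adjusted p = 0.0294). Chodl, a marker of fast motor neurons in mice, fell with a change of -0.86 (SE 0.21, adjusted p = 0.0139), while Slc5a7, the choline transporter, had -0.32 and no call; Esrrg (-0.11), an orphan nuclear receptor, fell. Spp1, osteopontin, which phagocytes make as well, rose by 0.83 (SE 0.19, adjusted p = 0.0114), and Gfra1, a receptor for GDNF, by 0.80 (SE 0.19, adjusted p = 0.0125); the third was Mmp9 (0.14), a matrix protease. Motor neuron genes called lower numbered 0 without the WT 7 d pool and 4 without the WT 30 min injury pool, the extremes with 1 pool left out, and 0 without the WT 30 min sham pool and 1 without the WT 4 h sham pool. Those called higher numbered 0 without the WT 7 d pool and 1 without the G93A 7 d pool or the WT 4 h sham pool. Of 18 tested genes linked to amyotrophic lateral sclerosis, 1 rose, which was Grn, and 4 fell. Besides Nefh these were Hnrnpa2b1, an RNA-binding protein, with -1.10 (SE 0.31, adjusted p = 0.0294), Kif5a, a motor of axonal transport, with -1.01 (SE 0.17, adjusted p = 0.00261), and Tuba4a, a tubulin, with -0.87 (SE 0.24, adjusted p = 0.0251). Dctn1, of the dynactin complex, had -0.89 and Pfn1, profilin 1, 0.74, and neither passed. Disease-linked genes called lower numbered 0 without the WT 7 d pool and 9 without the WT 30 min injury pool, the extremes with 1 pool left out, and 9 without the G93A 30 min injury pool, 2 without the WT 30 min sham pool, 2 without the WT 4 h sham pool and 2 without the G93A 30 min sham pool.

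Genes of mitochondrial respiration fell by less than 2-fold each. Of 36 tested (of 43 listed), 19 fell, 0 of them by 2-fold, and 0 rose, against 10.1% and 12.1% of all named genes. Both 7 d pools were below all shams for 29, against 30.4% of all named genes, and the median was -0.43. Cycs, cytochrome c, was at 11.72 in G93A and 11.50 in WT at 7 d, against 12.52 and 12.53 in the G93A shams and 12.59 and 12.57 in the WT shams. Cycs fell with a change of -0.94 (SE 0.20, adjusted p = 0.00684). Mdh1, a cytosolic malate dehydrogenase, fell with a change of -0.93 (SE 0.17, adjusted p = 0.00333), Ndufs1 of complex I with -0.92 (SE 0.20, adjusted p = 0.00919), Sdha of complex II with -0.89 (SE 0.20, adjusted p = 0.00919), Cox5b of complex IV with -0.82 (SE 0.16, adjusted p = 0.00531) and Atp5f1a of the ATP synthase with -0.78 (SE 0.16, adjusted p = 0.00567). Cox6c had 0.01, close to the edge of detection. Respiration genes called lower numbered 0 without the WT 7 d pool and 24 without the WT 30 min injury pool, the extremes with 1 pool left out, and 11 without the G93A 7 d pool, 11 without the WT 4 h sham pool and 12 without the G93A 30 min sham pool. 2 metabolic enzymes outside this list were among the 12 largest falls: Pkm, pyruvate kinase, at 8.44 in G93A and 7.26 in WT at 7 d, against 10.46 and 10.14 in the G93A shams and 10.02 and 10.18 in the WT shams, with -2.35 (SE 0.45, adjusted p = 0.00449), and Nat8l, which makes N-acetylaspartate in neurons, with -2.28 (SE 0.39, adjusted p = 0.0024). Both calls ended without the WT 7 d pool.

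Smaller groups had some members that moved, against 12.1% of all named genes that rose and 10.1% that fell. Of 22 endothelial genes, 4 rose and 0 fell. Vwf, von Willebrand factor, rose by 1.25 (SE 0.20, adjusted p = 0.0014) and Tie1, an endothelial receptor kinase, by 1.10 (SE 0.16, adjusted p = 0.000904); the others were Emcn (0.83) and Ocln (0.20), and Mfsd2a, the barrier lipid transporter, had -0.81 and no call. Vwf was at 11.10 in G93A and 11.06 in WT at 7 d, against 9.91 and 9.95 in the G93A shams and 9.88 and 9.56 in the WT shams. Of 21 regeneration-associated genes, 7 rose and 1 fell. Ngfr, the p75 neurotrophin receptor that Schwann cells also carry, was at 9.60 in G93A and 9.94 in WT at 7 d, against 6.97 and 7.29 in the G93A shams and 7.08 and 7.03 in the WT shams. Ngfr rose by 2.67 (SE 0.22, adjusted p = 2.4e-05), and Gadd45a, a stress gene, rose by 1.15 (SE 0.22, adjusted p = 0.00438). Stmn2, a neuronal microtubule regulator, fell with a change of -0.98 (SE 0.23, adjusted p = 0.0129). Of 23 redox and metal genes, 7 rose and 2 fell. Ftl1, the ferritin light chain, rose by 1.63 (SE 0.28, adjusted p = 0.00245) and Gpx1, a glutathione peroxidase, by 1.26 (SE 0.22, adjusted p = 0.00271). Sod2, the mitochondrial superoxide dismutase, was at 8.96 in G93A and 8.59 in WT at 7 d, against 10.03 and 10.39 in the G93A shams and 9.94 and 10.26 in the WT shams. Sod2 fell with a change of -1.38 (SE 0.17, adjusted p = 0.000261). The other gene of this list that fell was Gpx4 (-0.38), which reduces lipid peroxides. Of 28 growth factor genes, 7 rose and 3 fell. Bmp7, a bone morphogenetic protein, was at 8.73 in G93A and 9.0 in WT at 7 d, against 6.75 and 6.92 in the G93A shams and 6.88 and 6.87 in the WT shams. Bmp7 rose by 2.01 (SE 0.17, adjusted p = 2.67e-05); Igfbp3, which binds insulin-like growth factors, rose by 1.39 (SE 0.20, adjusted p = 0.000821) and Pros1, protein S, by 1.37 (SE 0.17, adjusted p = 0.000302), while Igf2 fell with a change of -1.23 (SE 0.16, adjusted p = 0.000388), and Fgf13 (-0.81) and Nrg1 (-0.80) fell. In the endothelial and regeneration lists from 2 to 6 and from 2 to 7 genes rose with 1 pool left out, and in the redox and growth factor lists from 1 to 8 and from 5 to 7, each lowest without the WT 7 d pool.

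Of 17 skeletal muscle genes, 1 rose and 4 fell, against 12.1% and 10.1% of all named genes. Tnnc2, the troponin C of fast muscle, had the largest fall of all named genes, at 7.43 in G93A and 7.03 in WT at 7 d, against 10.27 and 10.12 in the G93A shams and 10.13 and 9.98 in the WT shams, with -2.90 (SE 0.23, adjusted p = 2.06e-05). Acta1, skeletal actin, was instead at 6.97 in G93A and 6.71 in WT at 7 d, against 7.33 and 7.18 in the G93A shams and 7.44 and 9.52 in the WT shams, with -1.03 and no call, and Ckm, muscle creatine kinase, was above background in 0 of the 2 pools at 7 d and highest in the WT 4 h sham at 8.35. Tnnc2 thus had no excess in the WT 4 h sham pool, where Acta1 and Ckm were high. Pygm, glycogen phosphorylase, fell with a change of -1.43 (SE 0.21, adjusted p = 0.000918), and Des, desmin, which pericytes carry too, rose by 1.06 (SE 0.24, adjusted p = 0.00991); Pvalb (-1.92) and Tnnc1 (-0.33) fell. The call of Des ended without either 7 d pool, and 7 muscle genes were called lower without the G93A 4 h sham pool. Of 24 immediate early genes, 2 rose and 4 fell, shares near those of all named genes. Fos, a subunit of AP-1, was at 7.76 in G93A and 8.15 in WT at 7 d, against 9.67 and 9.20 in the G93A shams and 9.99 and 8.61 in the WT shams. Fos fell with a change of -1.41 (SE 0.22, adjusted p = 0.00131), and Jun, its partner, rose by 0.67 (SE 0.19, adjusted p = 0.0259); Dusp6 (0.97) rose too, and Dusp1 (-0.95), Klf4 (-0.84) and Ccn1 (-0.96) fell. Fos was highest in the 30 min shams of both genotypes, and its call held under all 24 other settings. Those of Dusp1, Klf4 and Ccn1 ended against the 4 h shams alone. Immediate early genes called higher numbered 0 without either 7 d pool and 1 without any 1 sham pool, and those called lower numbered 1 without either 7 d pool or either WT sham pool, 2 without the G93A 4 h sham pool and 6 without the WT 30 min injury pool. Of 10 red cell genes, 0 rose and 0 fell; of 12 ependymal genes, 2 rose, Rarres2 (1.07) and Dnai2 (0.23), and 0 fell; and of 7 Schwann cell genes, 2 rose, Ngfr (2.67) and Dhh (0.88), and 1 fell, Pmp22 (-0.49). Ependymal genes called higher numbered 0 without the WT 7 d pool, 1 without the WT 30 min sham pool and 4 without either 30 min injury pool, and the calls of Dhh and Pmp22 ended under 1 and 12 of 24 other settings. The plot of the lists gives the medians of all 34 by genotype.

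**Figure D3:**
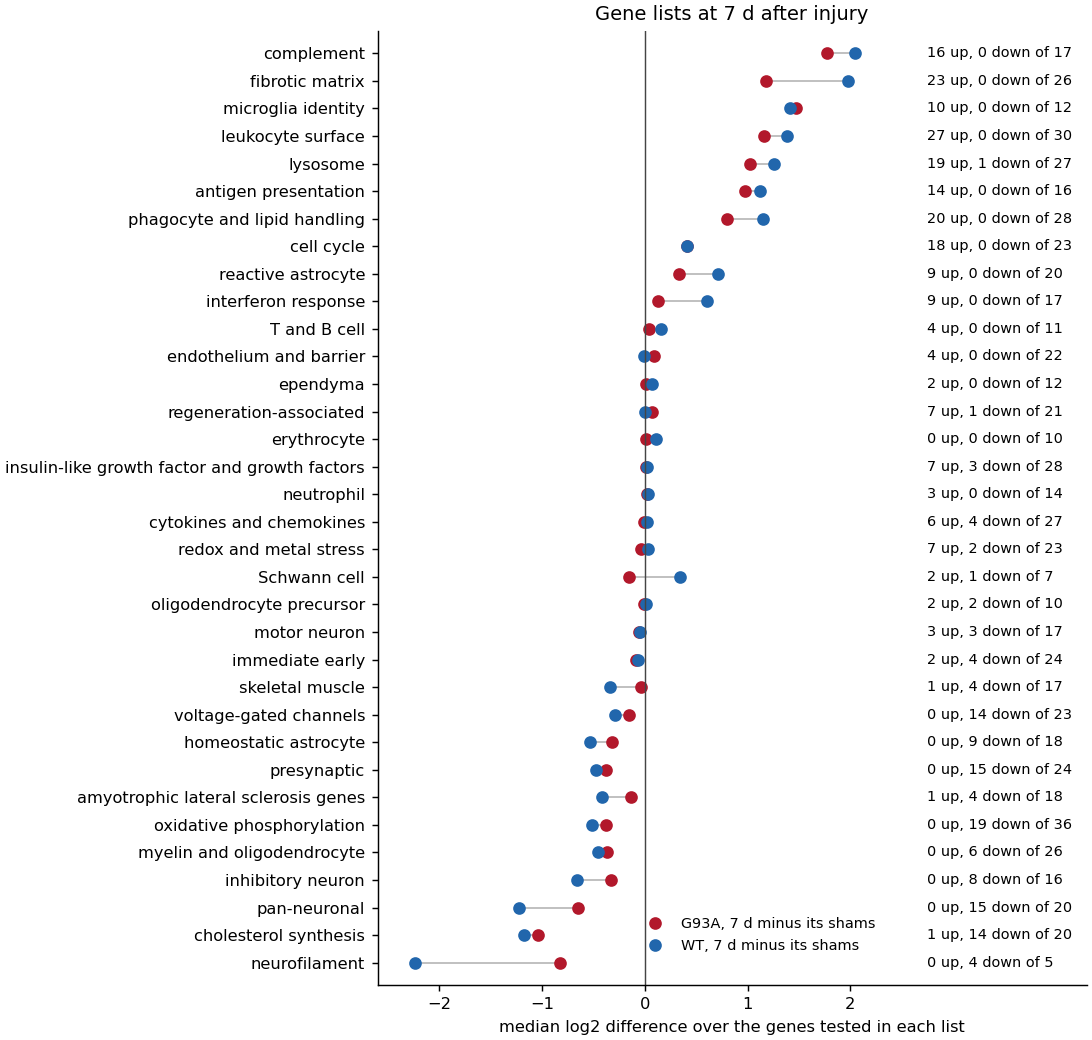
Median log2 difference (horizontal axis) between the 7 d pool and the mean of the 2 shams of the same genotype, over the tested genes of each of 34 lists, in red for G93A and blue for WT; numbers at the right count genes with an adjusted p under 0.05. Each point is a median over genes of 1 pool against 2, with no error bar; the neurofilament list lies at -0.82 in G93A and -2.24 in WT, and the complement list at 1.77 and 2.05.

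To place 7 d in time, the 7 d pools were also set against the 24 h injury pools in the same fit, where 327 named genes were higher (3.5%) and 160 lower (1.71%) at 7 d. Lysosome, complement and microglia genes were higher at 7 d than at 24 h in 16 of 27, 11 of 17 and 10 of 12 tested members, and 0, 0 and 0 were lower. Fcrl2 was higher by 4.07 (SE 0.23, adjusted p = 1.92e-05), Pld4 by 2.90 (SE 0.23, adjusted p = 9.29e-05), Trem2 by 2.69 (SE 0.22, adjusted p = 0.000105) and C4b by 2.65 (SE 0.28, adjusted p = 0.000415). Cholesterol synthesis genes were lower at 7 d than at 24 h in 8 of 20; Idi1 was at 9.88 in G93A and 9.76 in WT at 24 h, a difference of -1.44 (SE 0.24, adjusted p = 0.00687). Neuronal genes had 0 calls between 7 d and 24 h in the pan-neuronal, presynaptic, inhibitory, neurofilament and channel lists; Thy1 differed by -0.17 (SE 0.41, adjusted p = 0.937). Lcn2, Ccl7 and Cxcl1 were lower at 7 d than at 24 h, by -2.62 (SE 0.31, adjusted p = 0.000888), -3.22 (SE 0.30, adjusted p = 0.00019) and -2.06 (SE 0.35, adjusted p = 0.00722). A missing call does not show that 7 d and 24 h were alike.

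The choice of sham mattered for genes whose 30 min and 4 h shams lay far apart. Lcn2, lipocalin 2, an acute phase protein, was at 10.01 in G93A and 9.79 in WT at 7 d, against 6.94 and 10.47 in the G93A shams and 6.99 and 9.33 in the WT shams. Against the 30 min shams its log2 fold change was 2.93 (adjusted p = 0.00015) and against the 4 h shams it was -0.0023 (adjusted p = 0.998). Timp1, an inhibitor of matrix proteases, was at 12.30 in G93A and 12.44 in WT at 7 d, against 8.78 and 11.59 in the G93A shams and 8.89 and 11.77 in the WT shams, with 3.53 against the 30 min shams and 0.69 against the 4 h shams. For both genes the 7 d pools and the 4 h shams lay near each other and far above the 30 min shams. Sbno2, a transcriptional regulator, had 1.67 and -0.02 against the 30 min and the 4 h shams, and Mt1, metallothionein 1, 1.30 and -0.29. Gbp2 had 2.59 and 0.74, and Irf1, an interferon regulatory factor, 1.54 and 0.17. Ccl7, a monocyte attractant, was at 6.71 in G93A and 6.97 in WT at 7 d, against 6.60 and 8.43 in the G93A shams and 6.72 and 8.81 in the WT shams, with 0.18 and -1.78, and Cxcl1 had -0.82 and -2.29. The log2 fold change of each of these 8 genes against the mean of the shams lies between the 2 values given. The calls of Lcn2, Timp1, Sbno2, Mt1, Gbp2 and Irf1 ended against the 4 h shams alone. Those of Ccl7 and Cxcl1 ended against the 30 min shams alone.

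**Figure D4:**
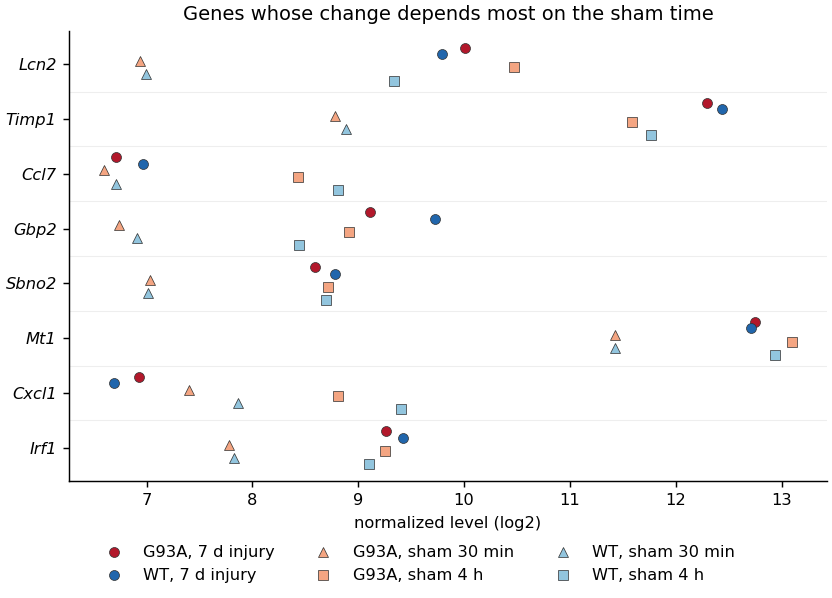
Normalized level (log2, horizontal axis) in the 6 pools of the 8 called genes with the widest gap between the contrasts against the 30 min and the 4 h shams. Each symbol is 1 pool, with no error bars; for Lcn2 the 7 d pools lie at 10.01 in G93A and 9.79 in WT, the 4 h shams at 10.47 and 9.33 and the 30 min shams at 6.94 and 6.99.

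A difference of the 7 d response between genotypes was tested as the change in G93A minus the change in WT, each from its own shams. Of 13793 probes, 4 passed (0.029%), and 371 had an unadjusted p under 0.05. In all 4 the change was smaller in G93A than in WT, and Tnmd was not called at 7 d itself (adjusted p = 0.0794). Aspn, asporin, a small matrix proteoglycan, was at 6.77 in G93A and 8.66 in WT at 7 d, against 6.56 and 6.65 in the G93A shams and 6.65 and 6.57 in the WT shams, and its genotype difference was -1.88 (SE 0.14, adjusted p = 0.00709). Tnmd, tenomodulin, a membrane protein of tendon, was at 6.50 in G93A and 7.41 in WT at 7 d, against 6.51 and 6.50 in the G93A shams and 6.60 and 6.50 in the WT shams, with a difference of -0.87 (SE 0.07, adjusted p = 0.00709). Mmp12, whose shams were not above background, so that its difference has no exact size, had a fitted -1.32 (SE 0.13, adjusted p = 0.0215), and Itga11, a collagen-binding integrin of fibroblasts, -0.81 (SE 0.09, adjusted p = 0.0313), at 6.76 in G93A and 7.58 in WT at 7 d, against 6.49 and 6.51 in the G93A shams and 6.53 and 6.49 in the WT shams. All 4 are dim genes whose signal left the edge of detection in the WT 7 d pool, and the G93A 7 d pool stayed within 1 log2 unit of the shams. Slamf9, a receptor of myeloid cells likewise not above background in shams, had -0.85 (SE 0.11, adjusted p = 0.0898) and did not pass. These calls rest on 1 pool of each genotype at 7 d, and the difference cannot be fitted without either of them. The count was 0 without any 1 of the 4 injury pools of 4 h and 24 h, without either 4 h sham pool and without the G93A 30 min sham pool, and 2 without the WT 30 min sham pool. It was 14 without the G93A 30 min injury pool. It was 17 without the WT 30 min injury pool. In both fits the 30 min injury pool that remains is fitted exactly and adds nothing to the spread.

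Across genes, the change was larger in WT for 930 of the 1132 genes that rose (82.2%) and for 742 of the 942 that fell (78.8%), against 64.5% of all named genes. The median change of the genes that rose was 0.62 in G93A and 0.88 in WT, and that of the genes that fell was -0.62 in G93A and -0.92 in WT. With a 2-fold limit and no test, 400 probes were higher (2.9%) and 235 lower (1.7%) in the G93A 7 d pool than in its shams, and 665 (4.82%) and 666 (4.83%) in the WT 7 d pool. The genes were called on the mean of both genotypes, and with 1 pool of each at 7 d the genotype and the pool cannot be told apart. The plot of the change in each genotype shows the called probes along the line of equal change, tilted towards WT at both ends.

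**Figure D5:**
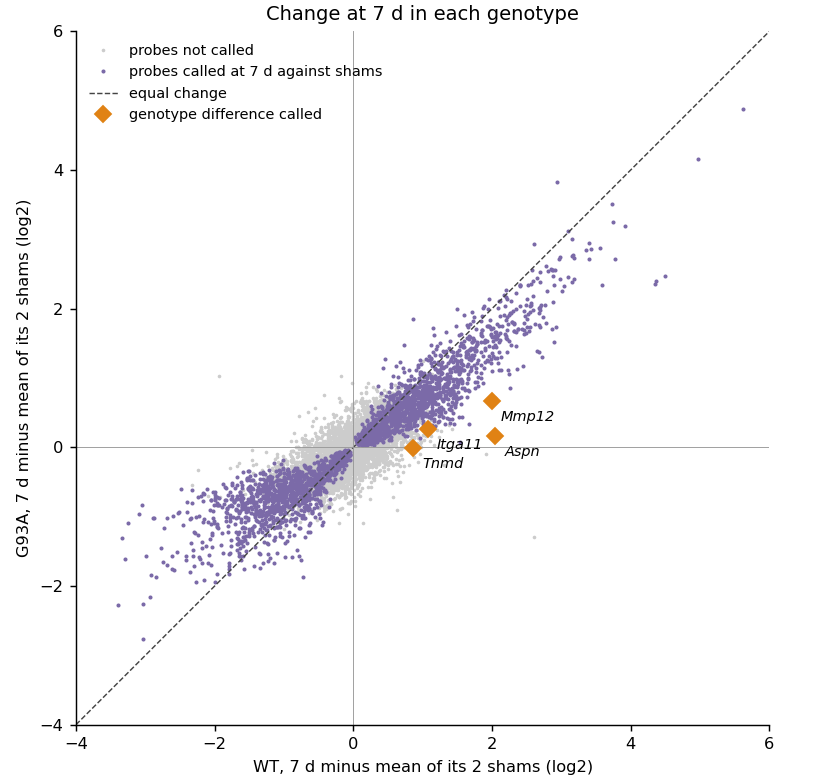
Log2 difference between the 7 d pool and the mean of the 2 shams for G93A (vertical axis) and WT (horizontal axis), 1 point per tested probe. Grey points were not called, violet points were called at 7 d against shams, the dashed line marks equal change and orange diamonds mark the 4 probes with a called genotype difference, among them Aspn at 0.17 in G93A and 2.05 in WT.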

How the data were processed

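RNA of rats of 1 genotype, operation and time was pooled, and each of 12 pools was labelled and hybridised to 1 Illumina rat array. The deposited table holds bead-average signal intensity per probe, already background-subtracted since values below 0 occur, with a detection p-value beside each intensity, per the file headers. The submitters' processing notes name BeadStudio 3.2.6 and, in the sources used here, no other step. The mean signals of the 12 arrays lay between 324.9 and 326.9, so the deposited values may already be scaled to a common mean. The sources used here do not name such a step.

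The probe identifiers were sorted as text, with the values left in file order, because under the deposited pairing housekeeping genes and smell receptors were above background in nearly the same share of probes. Intensities were corrected with neqc in limma 3.58.1 under R 4.3.3 (offset 16, quantile normalization), with the background estimated from the detection p-values, and put on the log2 scale, which the deposited intensities are not. Probes with a detection p under 0.05 on at least 2 of 12 arrays were kept, 13793 of 22226. Of all probes, 13192 had 1 gene symbol in the platform annotation, 0 had several and the rest had none. Of the probes kept, 9423 were named, and a gene with several probes was represented by the one with the highest mean level. Probes of a gene were not combined.

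One limma model over all 12 pools held the 6 conditions and genotype, leaving 5 residual degrees of freedom, and its variances were moderated along an intensity trend. The contrast was 7 d injury minus the mean of both sham conditions. A second model with a separate genotype effect for shams, early injury and 7 d gave the genotype difference with 3 residual degrees of freedom. P-values were adjusted by Benjamini-Hochberg over all probes kept, with a threshold of 0.05. Both models were tested on simulated data. The number of arrays limits the precision.

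Genes named are the 12 largest increases and the 12 largest decreases, up to 6 members of each list with the largest change and up to 2 that moved most the other way, the 5 with the smallest p of the genotype difference, Sod1, and up to 8 genes called at 7 d with the widest gap between the 2 sham times. Il1b, Cx3cl1, Sox6, Esrrg, Ocln, Gpx4, Nrg1 and Tnnc1 were chosen after their values were seen. The members and lists were chosen with earlier results of these data known. Promoters came from the RefSeq table of GRCr8. Alternatives covered background correction, normalization, filters, the submitters' processed table, the sham time, the model terms and leaving out each pool; the lower limit of 2-fold was added after seeing the data.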

Additional observations from a re-analysis of the deposited data

Results flagged for a closer look

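In 2 of the 24 genes with the largest changes, 1 sham pool stood away from the other 3 by more than Dixon's critical value allows. Postn, a matrix protein, was at 7.03 in the WT 30 min sham pool and near the edge of detection in the other shams. Scn1a, a sodium channel, was at 9.83 in the G93A 4 h sham pool, below the other shams. Chance marks about 1 in 20 such groups, and 24 were checked. Both genes still had both 7 d pools beyond all 4 shams, but they were picked by their change in these same pools.

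In 4 genes the difference between genotypes in the 7 d response passed limma's test, which rests on 1 pool of each genotype at 7 d, so that genotype and pool cannot be told apart. The count was 0 without background correction, with the submitters' processed table, without the intensity trend and with any of 7 pools left out. The change in G93A minus that in WT was -1.88 for Aspn, -0.87 for Tnmd, -1.32 as fitted for Mmp12, whose shams were not above background, and -0.81 for Itga11. Aspn, Mmp12 and Itga11 encode a matrix proteoglycan, a matrix protease and a collagen receptor, and Tnmd is known from tendon. The pericyte and fibroblast markers averaged 10.73 in the G93A 7 d pool and 11.78 in the WT 7 d pool, and their part in these differences was not tested.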

How the results depend on the processing

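Of the named genes' values recomputed under other settings, 3822 kept direction and side of the threshold and 392 fell short of it. Another 5, all of Sod1, newly passed, and 4 changed sign. These 4 were Lcn2 (-0.0023), Sbno2 (-0.020) and Mt1 (-0.29) against the 4 h shams alone and Ccl7 (0.18) against the 30 min shams alone. Of the list medians, 732 moved by no more than the gap between the G93A and WT medians of the list, and 84 moved by more. Among them 20 changed sign, in 6 lists whose medians were at most 0.0919 in size. With 1 pool left out, probes called higher ranged from 533 to 2316 and lower from 107 to 2595, both lowest without the WT 7 d pool, and genotype calls from 0 to 17. Higher calls were 1027 without the WT 4 h sham pool. Lower calls were 614 without the G93A 7 d pool, 736, 621 and 735 without the WT 30 min, WT 4 h and G93A 30 min sham pools, and 2594 and 2595 without the WT and the G93A 30 min injury pool. Fitting only the 6 pools compared gave 2368 higher, 2650 lower and 550 genotype calls, with 1 residual degree of freedom for the last. Without both 30 min injury pools these were 2315, 2618 and 16, and at an adjusted p under 0.01 they were 927, 455 and 2. At least 2-fold, chosen after seeing the data, left 502 higher and 407 lower. Against the 4 h shams alone 737 were lower, and the genotype calls were 2 against either sham time alone. By limma there were 0 genotype calls without background correction, with the submitters' processed table and without the intensity trend, where 279, 112 and 553 probes had an unadjusted p under 0.05, and 1 with median centring. The causes were not tested. No paired analysis of replicates was possible because each genotype and condition had only 1 pool. Probes near the edge of detection show little of a change, and 1 pool per group leaves the spread between rats unmeasured.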
